A study of Homo sapiens with 6 samples.

Results

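The translation initiation and elongation factors were taken as every gene in the deposited expression table whose symbol starts with EIF or EEF followed by a digit. Of 72 such rows, 5 with names ending in P or P plus digits and 5 with hyphenated names were set aside, which left 62 genes out of 26810 rows without spike-ins. By name they fell into 5 EIF1 genes, 5 EIF2, 5 EIF2B, 4 EIF2AK, 14 EIF3, 13 EIF4, 6 EIF5 or EIF6 and 10 EEF genes. The name rule also set aside EIF4EBP1, EIF4EBP2 and EIF4EBP3, the inhibitors of the cap-binding protein, which are taken up at the end with other translation genes.

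Poly(A)-selected RNA came from U-937, a human myeloid leukemia cell line with monocytic features, which the labels give with a KMT2A-MLLT10 fusion. In the sgMETTL1.3 group (3 libraries) a Cas9-expressing single clone of this line carried a lentiviral guide RNA against METTL1, which methylates guanosines of tRNA at position N7. In the sgNS group (3 libraries) the same clone carried a control guide. Both groups were selected with blasticidin at 10 µg/ml and hygromycin B at 200 µg/ml and harvested at day 8 to 10 after transduction. The comparison asked how this guide changes gene expression. It rests on 1 guide in 1 clone without a rescue, so loss of METTL1 and any further effect of that guide cannot be told apart. Whether the replicates were separate cultures is not stated, and the p-values then measure only a spread between libraries that may be technical.

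Translation of an mRNA starts when eIF2, carrying GTP and the initiator tRNA, joins the small ribosomal subunit together with eIF1, eIF1A, eIF3 and eIF5. The eIF4 factors bind the cap, unwind the 5′ leader and bring the mRNA to this complex, and eIF5B then joins the large subunit. eIF2B recharges eIF2 with GTP, and 4 stress-sensed kinases of the EIF2AK family block that step by phosphorylating eIF2. During elongation, eEF1A delivers aminoacyl-tRNA, the eEF1B subunits recharge eEF1A, and eEF2 moves the ribosome along.

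Values were TPM, a share of all transcripts corrected for transcript length, multiplied by 1 factor per library so that synthetic spike-in RNAs had the same sum everywhere. They are called the spike-in scale here. The sources used here do not give the amount of spike-in RNA or the step at which it was added. A lower value on this scale therefore cannot be read as less RNA per cell. Read depth behind the values is unknown, and 12134 to 12505 genes per library reached a value of 1. METTL1 itself had values of 8.28, 5.94 and 7.42 in the sgMETTL1.3 libraries, against 19.7, 22.0 and 20.3 in the sgNS libraries (log2 fold change -1.41, limma adjusted p = 2.41e-06; -1.09 as TPM). Results are given on both scales, since over 12449 tested genes the median change in log2 was -0.32 on the spike-in scale and 0.002 after each library was set back to TPM. The factors were 0.832 to 1.03 in sgMETTL1.3 and 1.13 to 1.23 in sgNS. Of 10 monocytic markers, 9 had a mean of at least 1, with MPO below 1 in every library, and their summed level was 994 to 1267 in sgMETTL1.3 and 1792 to 1939 in sgNS. None of 3 erythroid and none of 3 epithelial markers reached a mean of 1. CD2 and NKG7 of 4 T and NK cell markers did (summed 161 to 244 in sgMETTL1.3 and 306 to 340 in sgNS), as did COL1A1 of 3 fibroblast markers (1.66 to 2.78 in sgMETTL1.3 and 1.03 to 1.14 in sgNS). Both groups came from the same clone of U-937, and these transcripts do not by themselves show that other cell types were present. Their part in the results was not tested.

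The library sgMETTL1.3 replicate 1 stood apart. Its deviation from the other 2 libraries of its group followed the GC content of the transcripts, with a Spearman correlation of 0.80 over the 57 tested translation factors and 0.86 over 10929 tested genes with a GC value. These genes share the same 3 libraries and are not independent. EEF1D, with a GC content of 62.6%, was 0.57 higher in that library on the log2 scale, and EIF3J, with 39.9%, was lower (-0.22). Counts are therefore also given without it, and the part of GC content in single results was not tested.

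**Figure D1:**
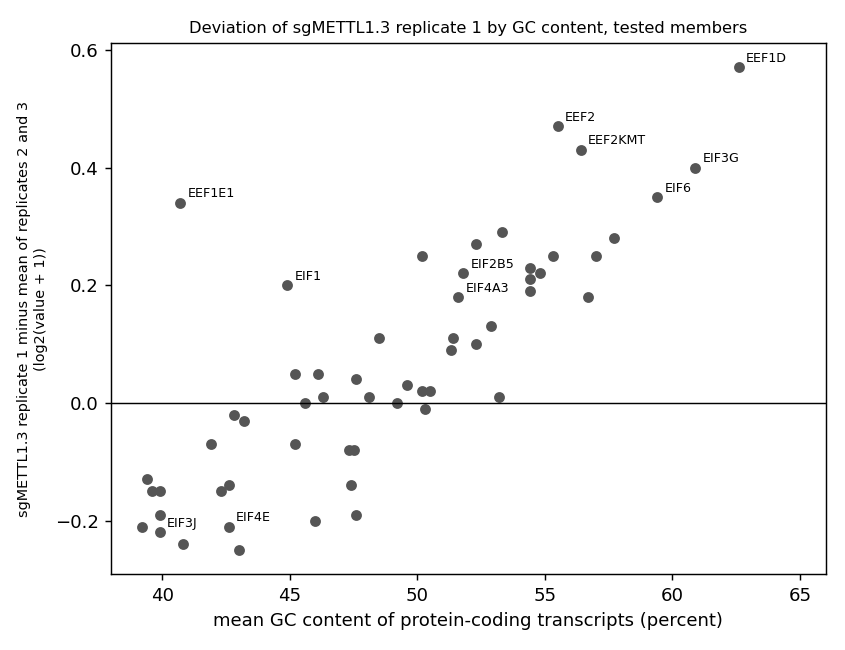
Each point is 1 of 57 tested translation factors, with the mean GC content of its protein-coding transcripts on the x axis (percent) and the value in sgMETTL1.3 replicate 1 minus the mean of replicates 2 and 3 on the y axis (log2(value + 1)). GC-rich transcripts such as EEF1D and EEF2 were higher in replicate 1, and GC-poor ones such as EIF3J and EIF4E lower, with EEF1E1 (40.7% GC, 0.34) apart from this pattern.

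Most translation factor transcripts were lower in the sgMETTL1.3 libraries, and 1, EIF4A3, was higher. A limma fit over all genes on log2(value + 1), with Benjamini-Hochberg adjustment at 0.05, called 41 of 57 tested members lower and 1 higher, and 15 did not pass. Of all tested genes, 49.3% were called lower and 6.40% higher, against 71.9% and 1.75% of the members. The median log2 fold change of the members was -0.53, with a range of -1.63 to 0.80. As TPM, 30 of 58 members were called lower and 10 higher (51.7% and 17.2%), where 26.6% and 24.4% of all genes were called, and the members' median was -0.17. Without sgMETTL1.3 replicate 1, 46 members were lower and 2 higher on the spike-in scale, where 61.4% and 6.43% of all genes were called. As TPM without that library, 33 were lower and 20 higher, where 35.4% and 34.7% of all genes were called. Values of the groups did not overlap for 47 members on the spike-in scale, 45 lower and 2 higher, where 53.4% and 8.66% of all genes were apart in these directions. As TPM, 33 were apart and lower and 12 apart and higher, where 33.1% and 30.2% of all genes were.

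Calls lower on both scales and with or without replicate 1 numbered 29, and EIF4A3 was the 1 member called higher in all 4 of these fits. A further 11 members fell on the spike-in scale but did not pass as TPM (EIF1AD, EIF2B4, EIF2AK2, EIF3A, EIF3H, EIF3L, EIF4E2, EIF4E3, EIF4H, EIF5 and EIF6). Of these, 5 were called higher as TPM without replicate 1 (EIF1AD, EIF3H, EIF3L, EIF4E2 and EIF5), so their direction rests on the scale. Members at log2 fold changes under -1 on the spike-in scale were EIF2B5, EIF2B3, EIF3J, EIF4E, EIF4G3, EEF1E1, EEF2KMT and EEF1AKMT1, 8 in all. The share of all genes that met each of these joint rules, or lay under -1, was not computed. Whether the counts in this paragraph are unusual is therefore not known. Not tested were EIF3C, EIF4E1B, EIF5AL1, EEF1A2 and the Y-linked copy of EIF1AX, 5 genes that did not reach a value of 1 in 3 libraries.

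**Figure D2:**
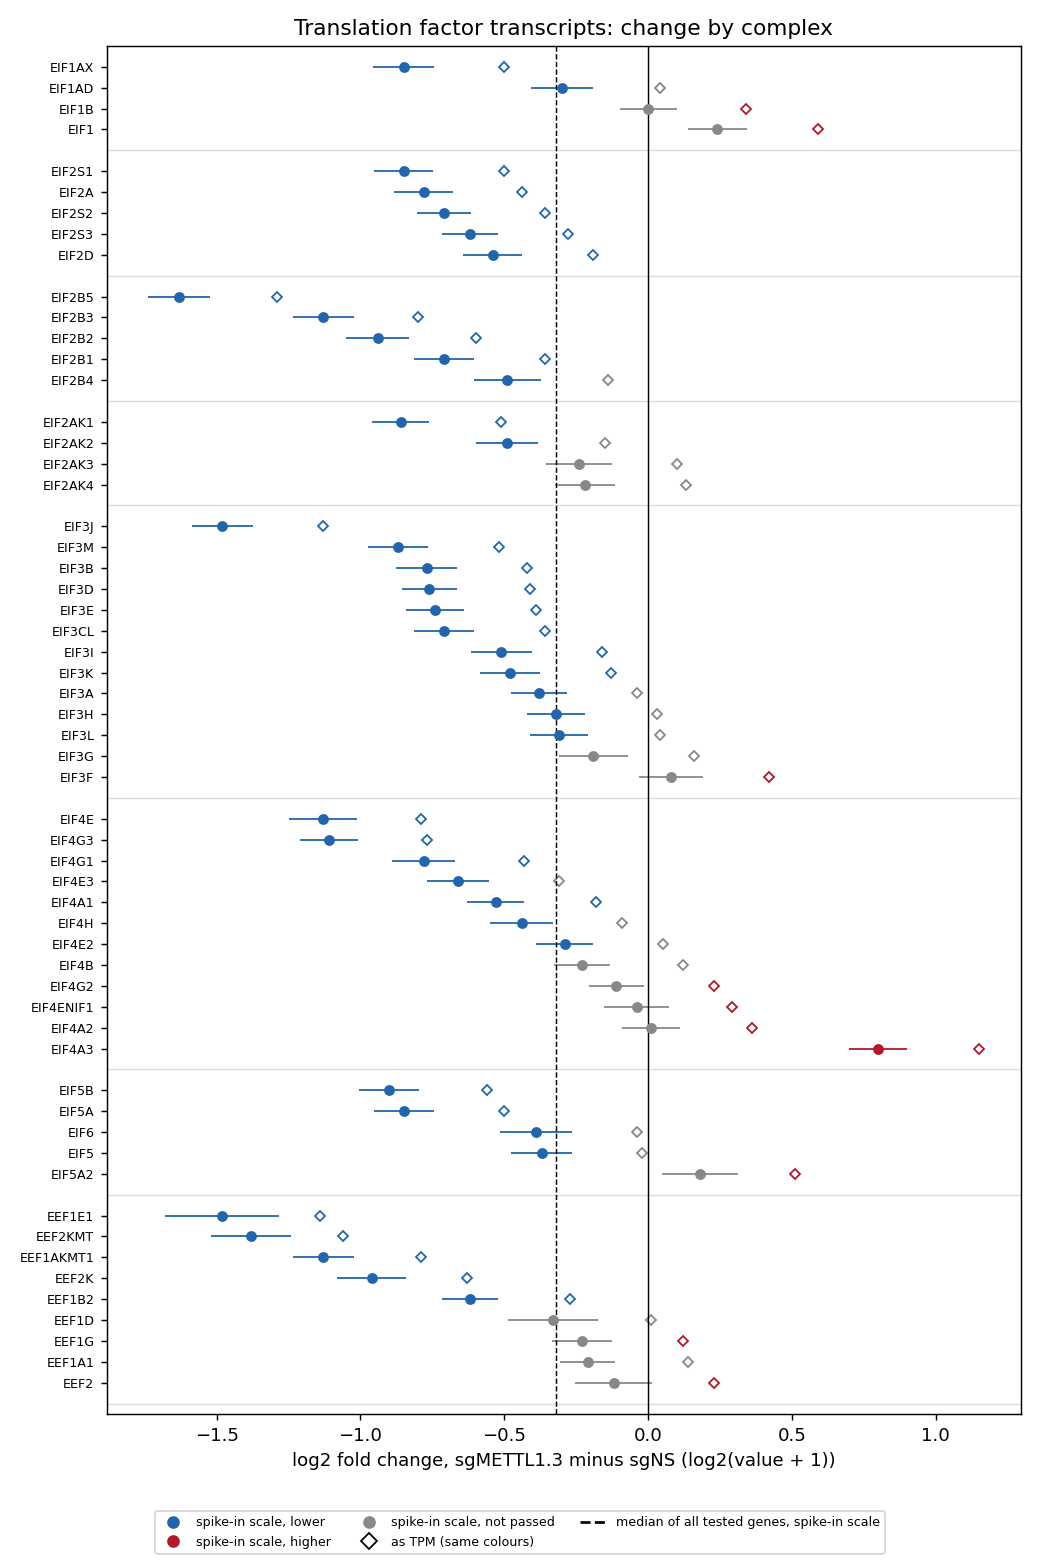
Log2 fold change of each tested member (sgMETTL1.3 minus sgNS, on log2(value + 1)), grouped by complex. Filled circles with bars are the spike-in scale with its standard error, open diamonds the same genes as TPM, colours mark the limma call, and the dashed line is the median of all tested genes (-0.32); every EIF2 and EIF2B circle lies below 0, and EIF4A3 at 0.80 is the highest.

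By level per length, 3 elongation factor genes, EEF1A1, EEF2 and EEF1G, stood above the other members. EEF1A1, which encodes the main tRNA carrier, had 5123, 4643 and 5372 in the sgMETTL1.3 libraries, against 5579, 6015 and 5916 in the sgNS libraries. Next by mean in sgNS came EEF2 (2005 ± 415 in sgMETTL1.3 and 2156 ± 87.6 in sgNS) and EEF1G (1731 ± 189 and 2021 ± 90.0, SD, n = 3). The levels of EEF2 and EEF1G, neighbours in this order, overlapped within their spread in each group. The initiation factor with the highest level in sgNS was EIF4A1, at 659 ± 52.7 in sgMETTL1.3 and 950 ± 46.6 in sgNS (SD, n = 3), and the tested member with the lowest level in sgNS was EIF5A2, at 17.6 ± 2.65 in sgMETTL1.3 and 15.3 ± 1.59 in sgNS (SD, n = 3). Summed over all members on the spike-in scale, the level was 17804 to 20756 in sgMETTL1.3 and 23648 to 25686 in sgNS. The EEF genes made up 8681 to 10476 and 10943 to 11803 of it. These sums carry the factor of each library (0.832 to 1.03 in sgMETTL1.3 and 1.13 to 1.23 in sgNS). They were not formed as TPM, so they do not show a smaller share of translation factor transcripts. As TPM, means were higher in sgMETTL1.3 for EEF1A1 (5413 against 4914), EEF2 (2130 against 1815) and EEF1G (1850 against 1701). EEF1B2, next in level, was lower (829 against 998). In bulk RNA, fewer cells of a type and less RNA per cell cannot be told apart.

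The genes of eIF1 and eIF1A, which open the small subunit for scanning and guard start codon choice, did not move together. EIF1AX, the X-linked eIF1A gene, had 80.8, 81.5 and 96.2 in the sgMETTL1.3 libraries, against 146, 167 and 153 in the sgNS libraries. All 3 sgMETTL1.3 values lay below all sgNS values, and the gene fell by 0.85 in log2 (SE 0.106, limma adjusted p = 2.34e-05; -0.50 as TPM). EIF1 had 786, 640 and 733 in sgMETTL1.3, against 576, 613 and 629 in sgNS. Here the sgMETTL1.3 values lay above the sgNS values, but the difference of 0.24 in log2 did not pass (SE 0.102, limma adjusted p = 0.058), while EIF1 was called higher as TPM (0.59, limma adjusted p = 9.26e-05) and without sgMETTL1.3 replicate 2 (0.33). EIF1B, its paralog, averaged 162 ± 12.6 in sgMETTL1.3 and 163 ± 7.30 in sgNS (SD, n = 3), and was called higher as TPM (0.34). None of the 50-base windows in annotated EIF1 transcripts occurs in those of EIF1B. Within a library, the level of EIF1 over that of EIF1AX was 9.73, 7.85 and 7.62 in sgMETTL1.3 and 3.94, 3.68 and 4.11 in sgNS.

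All 5 EIF2 genes fell, on the spike-in scale as well as on TPM, where 49.3% and 26.6% of all genes were called lower. Their log2 fold changes spanned -0.85 to -0.54 (median -0.71), the narrowest spread of any group (SD 0.125 over genes). EIF2S1, the alpha subunit that the stress kinases phosphorylate, had 63.7, 69.0 and 76.5 in sgMETTL1.3, against 120, 132 and 127 in sgNS. The groups did not overlap, and the log2 fold change was -0.85 (SE 0.103, limma adjusted p = 1.79e-05; -0.50 as TPM). EIF2S3, the gamma subunit that binds GTP and the initiator tRNA, had 366, 359 and 409 in sgMETTL1.3, against 548, 616 and 582 in sgNS. It was the EIF2 gene with the highest level and changed by -0.62 (SE 0.0978, limma adjusted p = 0.000136; -0.28 as TPM). EIF2S2, the beta subunit, fell to 115 ± 4.73 in sgMETTL1.3, against 189 ± 7.95 in sgNS (SD, n = 3). EIF2A and EIF2D are single-chain factors outside the eIF2 trimer that can bring initiator tRNA without it. EIF2A changed by -0.78. EIF2D had 43.8, 38.2 and 42.1 in sgMETTL1.3, against 57.6, 61.9 and 61.5 in sgNS, and changed by -0.54 (limma adjusted p = 0.000585; -0.19 as TPM). EIF2S1 overlaps ATP6V1D, and EIF2D overlaps RASSF5, both on the opposite strand. Whether counting used strand is not given in the sources used here, so reads in such overlaps could be shared.

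Transcripts of the exchange factor eIF2B were lower for all 5 subunit genes, with log2 fold changes from -1.63 to -0.49 (median -0.94). All 5 were called lower on the spike-in scale and 4 as TPM, where 49.3% and 26.6% of all genes were. EIF2B5, the catalytic epsilon subunit, lies on chromosome 3 at 184135038 to 184146112 (GRCh38, plus strand). It had 35.7, 29 and 32.0 in sgMETTL1.3, against 99.5, 107 and 99.5 in sgNS, so the sgMETTL1.3 mean was 31.6% of the sgNS mean. It showed the lowest value of all members, at -1.63 in log2 (SE 0.107, limma adjusted p = 2.56e-07; -1.29 as TPM). EIF2B3, the gamma subunit that pairs with epsilon, had 20.1, 20.5 and 22.2 in sgMETTL1.3, against 44.2, 46.4 and 51.0 in sgNS (-1.13, limma adjusted p = 2.54e-06; -0.80 as TPM).

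The regulatory subunits alpha, beta and delta sense phosphorylated eIF2. EIF2B2 (beta) had 19.5, 19.0 and 20.8 in sgMETTL1.3, against 36.1, 37.8 and 42.7 in sgNS (-0.94, limma adjusted p = 1.27e-05). EIF2B1 (alpha) had 79.5, 73.1 and 85.2 in sgMETTL1.3, against 120, 135 and 134 in sgNS (-0.71, limma adjusted p = 7.4e-05). EIF2B4 (delta) changed least, with 62.3, 47.9 and 56.8 in sgMETTL1.3, against 72.5, 77.6 and 84.4 in sgNS (-0.49, limma adjusted p = 0.00301), and did not pass as TPM (-0.14, limma adjusted p = 0.0984). Transcript levels of the subunit genes therefore shifted against each other. EIF2B5 over EIF2B4 was 0.573, 0.604 and 0.564 in sgMETTL1.3 and 1.37, 1.38 and 1.18 in sgNS, a ratio that no scaling of a library alters. Summed over the 5 genes on the spike-in scale, the level was 190 to 217 in sgMETTL1.3 and 372 to 412 in sgNS.

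Of the 4 eIF2 kinase genes, 2 fell on the spike-in scale and 1 as TPM, shares near those of all genes (49.3% and 26.6%). EIF2AK1 encodes HRI, the heme-regulated kinase. It had 110, 102 and 116 in sgMETTL1.3, against 188, 207 and 202 in sgNS (-0.86, SE 0.0981, limma adjusted p = 1.12e-05), and was also called lower as TPM (-0.51). It overlaps AIMP2 on the opposite strand. EIF2AK2, the double-stranded RNA kinase PKR, fell on the spike-in scale (-0.49) and did not pass as TPM (-0.15). EIF2AK4, the amino acid sensor GCN2 that uncharged tRNA activates, had 57.6, 50.9 and 61.1 in sgMETTL1.3, against 63.7, 67.5 and 65.6 in sgNS. Its log2 fold change of -0.22 did not pass (limma adjusted p = 0.0936) although the groups did not overlap, and it was 0.13 as TPM without passing. EIF2AK3, the endoplasmic reticulum kinase PERK, averaged 22.6 in sgMETTL1.3 and 26.8 in sgNS and did not pass on either scale. Without sgMETTL1.3 replicate 3, all 4 kinases were called lower on the spike-in scale, where 5901 of 12313 tested genes were. As TPM without sgMETTL1.3 replicate 1, EIF2AK3 and EIF2AK4 were called higher (0.22 and 0.18), so their direction depends on the scale.

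eIF3, the largest initiation factor, is a scaffold on the small ribosomal subunit. Of 13 tested EIF3 genes, 11 fell and 2 did not pass (median -0.51), while 8 of 14 were called lower and 1 higher as TPM. The share lower was 84.6%, where 49.3% of all genes were. As TPM, 57.1% were lower and 7.14% higher, where 26.6% and 24.4% of all genes were. EIF3J is a loosely bound subunit at the mRNA entry site of the ribosome, on chromosome 15 at 44537057 to 44563029 (plus strand). It had 69.6, 76.8 and 85.3 in sgMETTL1.3, against 204, 223 and 222 in sgNS, which gives -1.48 in log2 (SE 0.105, limma adjusted p = 3.98e-07; -1.13 as TPM). The other 12 tested EIF3 genes ranged from -0.87 to 0.08. EIF3J over EIF3A, the largest scaffold subunit, was 0.307, 0.344 and 0.335 in sgMETTL1.3 and 0.693, 0.691 and 0.730 in sgNS. The 3′ end of EIF3J overlaps SPG11 on the opposite strand.

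EIF3E, the EIF3 gene with the highest level, had 502, 518 and 599 in sgMETTL1.3, against 849, 946 and 908 in sgNS (-0.74, limma adjusted p = 4.5e-05; -0.39 as TPM). EIF3M changed by -0.87, EIF3B by -0.77 and EIF3D by -0.76, and all 3 were lower on both scales. EIF3D can itself bind the cap of some mRNAs. EIF3A, EIF3H and EIF3L changed by -0.38, -0.32 and -0.31, near the median of all genes, and did not pass as TPM. EIF3F had 201, 152 and 178 in sgMETTL1.3, against 166, 167 and 167 in sgNS. Its groups overlapped and it did not pass (0.08, limma adjusted p = 0.59), while it was called higher as TPM (0.42). EIF3G, with a GC content of 60.9% and 0.40 higher in replicate 1 on the log2 scale, averaged 277 ± 48.2 in sgMETTL1.3 and 313 ± 5.94 in sgNS (SD, n = 3); it did not pass with all libraries (-0.19), and without replicate 1 it was called lower on the spike-in scale (-0.32) and higher as TPM (0.09). The split of reads between EIF3C and EIF3CL is uncertain, since 97.2% of the 50-base windows in annotated EIF3CL transcripts also occur in EIF3C, and 77.7% of those of EIF3C in EIF3CL. The table placed 195 ± 20.1 in sgMETTL1.3 and 319 ± 17.1 in sgNS (SD, n = 3) on EIF3CL (-0.71), and a mean of 1.19 and 0.920 on EIF3C.

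Among the EIF4 genes, 7 of 12 tested fell, 1 rose and 4 did not pass, and as TPM 4 were lower and 4 higher. The shares of 58.3% lower, and of 33.3% in each direction as TPM, stand beside 49.3% of all genes lower, and 26.6% lower and 24.4% higher as TPM. EIF4A3 was the member that rose. It encodes an RNA helicase of the exon junction complex, which marks spliced mRNAs, and despite its name its known main role is not in cap-dependent initiation. EIF4A3 lies on chromosome 17 at 80135214 to 80147183 (GRCh38, minus strand), and had 623, 513 and 586 in sgMETTL1.3, against 312, 336 and 334 in sgNS. Every sgMETTL1.3 value lay above every sgNS value, the ratio of means was 1.75, and the log2 fold change was 0.80 (SE 0.101, limma adjusted p = 2.39e-05; 1.15 as TPM, limma adjusted p = 2.22e-05).

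Its relatives, the initiation helicases that unwind the 5′ leader, did not follow. EIF4A1 had 690, 598 and 689 in sgMETTL1.3, against 897, 984 and 968 in sgNS, and fell (-0.53, limma adjusted p = 0.000502; -0.18 as TPM). The read-through gene SENP3-EIF4A1 shares its exons and was listed at 148 ± 6.25 in sgMETTL1.3 and 213 ± 6.89 in sgNS (SD, n = 3), so reads could be shared between both rows. EIF4A2 averaged 384 ± 38.5 in sgMETTL1.3 and 379 ± 14.3 in sgNS (SD, n = 3) and did not pass (0.01), and was called higher as TPM (0.36). None of the 50-base windows in EIF4A3 transcripts occurs in EIF4A1 or EIF4A2. EIF4A3 over EIF4A1 was 0.903, 0.857 and 0.850 in sgMETTL1.3 and 0.348, 0.342 and 0.345 in sgNS. EIF4A2 over EIF4A1 was 0.519, 0.611 and 0.621 in sgMETTL1.3 and 0.408, 0.400 and 0.390 in sgNS. These and the other ratios, 10 in all, were chosen after the values were seen and carry no test. In both helicase ratios all sgMETTL1.3 libraries lay above all sgNS libraries.

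The cap-binding genes were mostly lower. EIF4E, the cap-binding protein and a known MYC target, had 17.0, 18.8 and 20.8 in sgMETTL1.3, against 39.3, 46.8 and 41.1 in sgNS (-1.13, SE 0.117, limma adjusted p = 5.29e-06; -0.79 as TPM). EIF4E2, a cap-binding relative linked to repression, averaged 48.7 ± 2.43 in sgMETTL1.3 and 59.7 ± 2.29 in sgNS (SD, n = 3), fell by 0.29 on the log2 scale and did not pass as TPM (0.05). EIF4E over EIF4E2 was 0.347, 0.408 and 0.409 in sgMETTL1.3 and 0.684, 0.785 and 0.663 in sgNS. The scaffold genes differed too. EIF4G3 had 34.9, 32.3 and 36.3 in sgMETTL1.3, against 72.6, 79.8 and 74.8 in sgNS (-1.11, limma adjusted p = 2.03e-06; -0.77 as TPM). EIF4G1, the main scaffold, fell to 277 ± 36.8 in sgMETTL1.3, against 472 ± 18.4 in sgNS (SD, n = 3; -0.78). EIF4G2 (DAP5), a scaffold that lacks the EIF4E-binding part, averaged 771 ± 58.9 in sgMETTL1.3 and 834 ± 41.0 in sgNS (SD, n = 3), did not pass (-0.11) and was called higher as TPM (0.23). EIF4G1 over EIF4G2 was 0.422, 0.326 and 0.331 in sgMETTL1.3 and 0.571, 0.553 and 0.575 in sgNS. EIF4B, which stimulates the helicase, was at -0.23 and did not pass with all libraries.

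**Figure D3:**
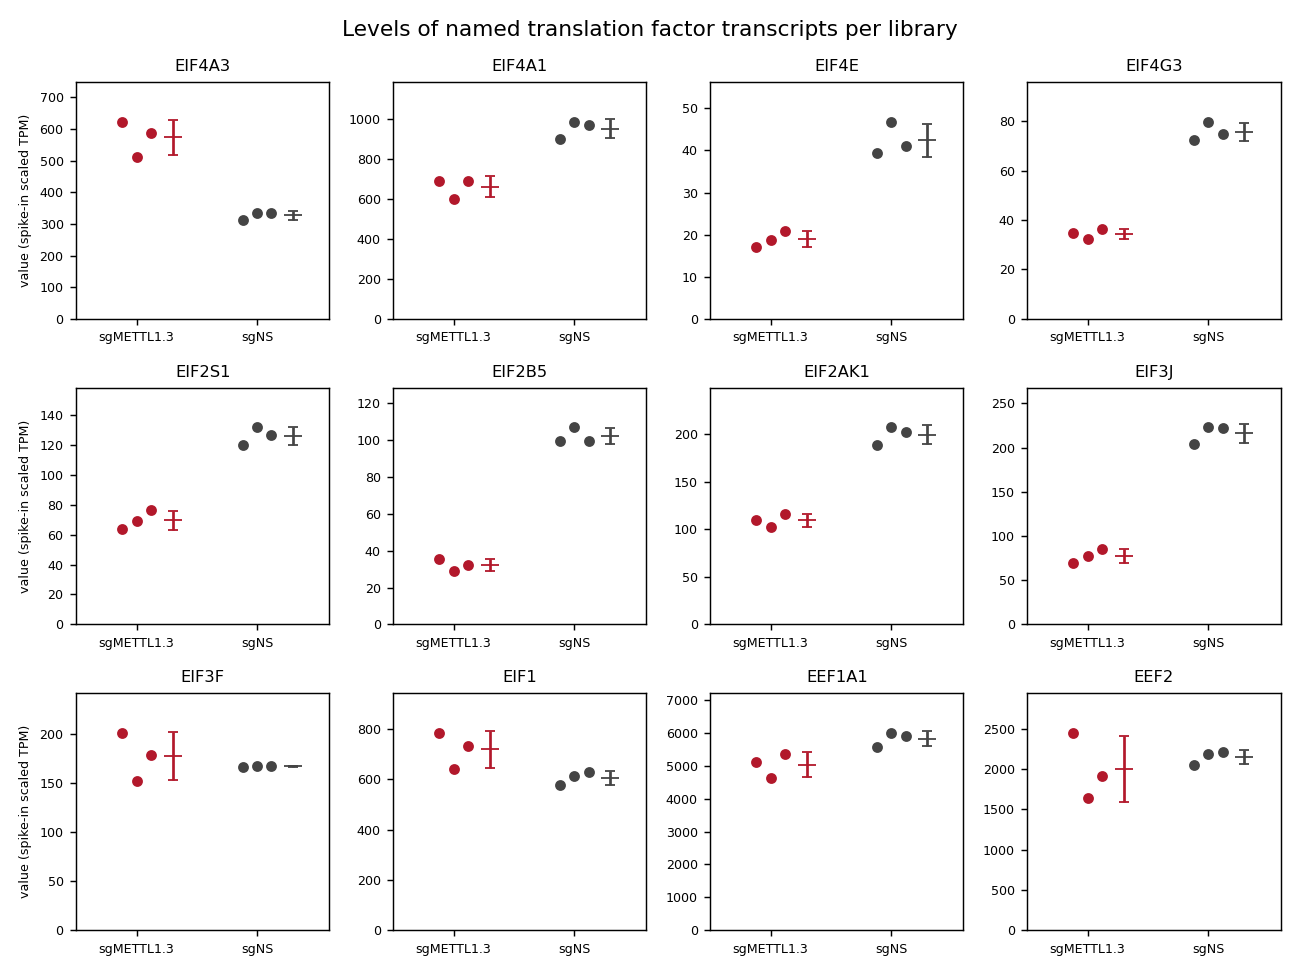
Values (TPM on the spike-in scale) of 12 translation factors in each library, with sgMETTL1.3 left of sgNS; points are libraries in replicate order, and the horizontal mark with its bar is the mean ± SD (n = 3). EIF4A3 is higher in sgMETTL1.3 (513 to 623 against 312 to 336), EIF2B5 and EIF3J are far lower, and EIF3F and EEF2 overlap.

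**Figure D4:**
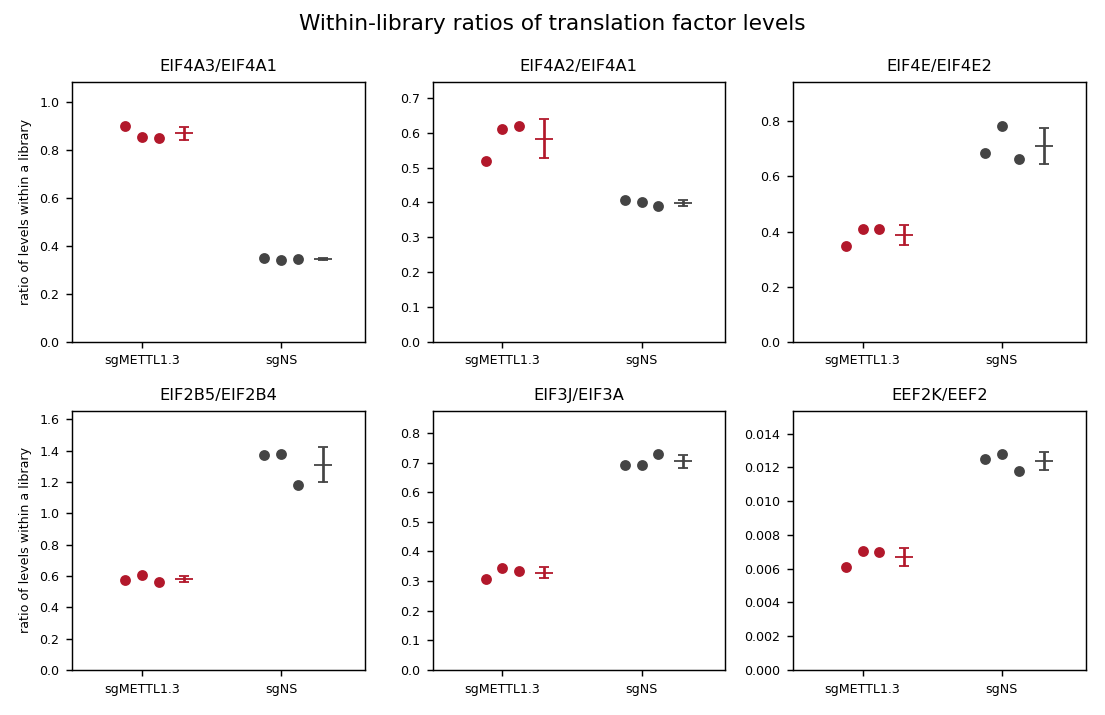
Ratio of the levels of 2 members within each library, which does not depend on the scaling of a library, with sgMETTL1.3 left of sgNS; points are libraries in replicate order and the bar is the mean ± SD (n = 3). EIF4A3 over EIF4A1 averaged 0.870 in sgMETTL1.3 and 0.345 in sgNS, and EIF2B5 over EIF2B4 0.581 and 1.31.

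The promoter sequences of EIF4A3 and EIF4E are shown because these genes moved in opposite directions while both carry the letters CACGTG, the motif known as the E-box that MYC with MAX binds. Each run ends at the base before the RefSeq start of the gene (GRCh38.p14, 5′ to 3′, capitals mark CACGTG, which reads the same on both strands).
EIF4A3 (chr17:80147129-80147278, minus strand): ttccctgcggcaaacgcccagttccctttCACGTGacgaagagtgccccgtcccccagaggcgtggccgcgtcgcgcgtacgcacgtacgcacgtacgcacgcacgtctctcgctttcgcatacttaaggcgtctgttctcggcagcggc
EIF4E (chr4:98929134-98929373, minus strand): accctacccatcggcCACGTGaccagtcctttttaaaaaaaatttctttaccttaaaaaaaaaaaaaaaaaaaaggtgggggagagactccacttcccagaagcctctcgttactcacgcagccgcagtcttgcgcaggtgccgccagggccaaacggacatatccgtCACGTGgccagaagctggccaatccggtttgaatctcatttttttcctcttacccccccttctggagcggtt
The motif begins 121 bases before the start in EIF4A3 and 225 and 72 bases before it in EIF4E. Of 46 tested members with a RefSeq window, 12 held CACGTG in the 250 bases before a start. By window, that was 19.4% of 62 windows of these members, and 6.34% of all 35116 windows held it. Members with the motif had a median log2 fold change of -0.46 (range -1.13 to 0.80) and members without it -0.58 (range -1.63 to 0.24). The letters describe these windows and do not show binding.

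Of 5 tested EIF5 and EIF6 genes, 4 fell on the spike-in scale and 1 did not pass (median -0.39). The share lower was 80%, where 49.3% of all genes were. As TPM, 2 were lower and 1 higher (median -0.04). That is 40% and 20%, where 26.6% and 24.4% of all genes were. EIF5B, the GTPase that joins the large subunit, had 107, 116 and 132 in sgMETTL1.3, against 211, 234 and 221 in sgNS (-0.90, SE 0.105, limma adjusted p = 1.24e-05; -0.56 as TPM). EIF5A carries the modified residue hypusine and helps stalled ribosomes. It had 518, 418 and 498 in sgMETTL1.3, against 819, 887 and 869 in sgNS (-0.85, limma adjusted p = 1.93e-05; -0.50 as TPM), and its 3′ end overlaps GPS2 on the opposite strand. EIF5A2, the paralog with a far lower level, had 15.4, 16.8 and 20.5 in sgMETTL1.3, against 14.6, 17.2 and 14.3 in sgNS. Its groups overlapped and it did not pass (0.18, limma adjusted p = 0.255), while it was called higher as TPM (0.51) and without replicate 1 (0.27, limma adjusted p = 0.0339). EIF5A2 over EIF5A was 0.0298, 0.0402 and 0.0413 in sgMETTL1.3 and 0.0178, 0.0193 and 0.0164 in sgNS. EIF5, which triggers GTP hydrolysis by eIF2, and EIF6, which keeps free large subunits apart from small ones, changed by -0.37 and -0.39 and did not pass as TPM.

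Among the EEF genes, the abundant factors and their regulators differed. Of 9 tested, 5 fell on both scales, and 2 were called higher as TPM. The share lower was 55.6%, against 49.3% over all genes. As TPM, 55.6% were lower and 22.2% higher, against 26.6% and 24.4% over all genes. Without sgMETTL1.3 replicate 1, 8 (88.9%) were called lower on the spike-in scale, against 61.4% over all genes. EEF1A1, listed above, did not pass (-0.21, limma adjusted p = 0.0772; 0.14 as TPM). EEF2, the translocase, had 2456, 1640 and 1920 in sgMETTL1.3, against 2055, 2197 and 2215 in sgNS. Its groups overlapped and it did not pass (-0.12, limma adjusted p = 0.459). The high value was sgMETTL1.3 replicate 1, where EEF2, with a GC content of 55.5%, was 0.47 higher on the log2 scale than in the other 2 libraries. Without that library it was called lower (-0.28, limma adjusted p = 0.0142), and as TPM it was called higher (0.23, limma adjusted p = 0.0381), so its direction is not settled by these data.

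Of the eEF1B exchange complex, EEF1B2, the catalytic subunit, fell to 772 ± 58.8 in sgMETTL1.3, against 1186 ± 60.2 in sgNS (SD, n = 3; -0.62, limma adjusted p = 0.000137; -0.27 as TPM). EEF1G and EEF1D, the other subunits, did not pass (-0.23 and -0.33), and both were called lower without replicate 1, while EEF1G was called higher as TPM (0.12). EEF1B2 over EEF1A1 was 0.150, 0.154 and 0.155 in sgMETTL1.3 and 0.200, 0.205 and 0.204 in sgNS.

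The genes that modify or accompany elongation factors changed most in this group. EEF1E1 encodes AIMP3, a scaffold protein of the multi-tRNA synthetase complex. It had 17.5, 18.2 and 10.1 in sgMETTL1.3, against 44.8, 41.5 and 43.0 in sgNS (-1.48, SE 0.198, limma adjusted p = 0.000274; -1.14 as TPM). Its reads could be shared with the read-through gene EEF1E1-BLOC1S5, which averaged 14.4 ± 1.61 in sgMETTL1.3 and 25.5 ± 1.78 in sgNS (SD, n = 3) and also fell (-0.79), and the EEF1E1 call was lost as TPM without sgMETTL1.3 replicate 1 (-1.19, limma adjusted p = 0.0593). EEF2KMT, a lysine methyltransferase of eEF2, had 10.1, 6.69 and 7.87 in sgMETTL1.3, against 22.0, 23.3 and 23.2 in sgNS (-1.38, limma adjusted p = 4.15e-06; -1.06 as TPM). It overlaps ALG1 on the opposite strand. EEF1AKMT1, a lysine methyltransferase of eEF1A, had 15.7, 14.7 and 16.7 in sgMETTL1.3, against 34.6, 35.1 and 36.5 in sgNS (-1.13, limma adjusted p = 2.64e-06; -0.79 as TPM). EEF2K, the kinase that inhibits eEF2, fell to 13.3 ± 1.69 in sgMETTL1.3, against 26.6 ± 1.3 in sgNS (SD, n = 3; -0.96, limma adjusted p = 2.31e-05). EEF2K over EEF2 was 0.00608, 0.00704 and 0.00696 in sgMETTL1.3 and 0.0125, 0.0128 and 0.0118 in sgNS.

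Many translation factor mRNAs start with a 5′ terminal oligopyrimidine tract, through which mTOR signalling is known to control their translation. The start regions of 8 members are shown because they hold such a tract and yet differed in change. Each run has 20 bases before the RefSeq start and 20 from it on (GRCh38.p14, 5′ to 3′), and capitals mark the unbroken run of C and T from the start base.
EEF1A1 (chr6:73521013-73521052, minus strand): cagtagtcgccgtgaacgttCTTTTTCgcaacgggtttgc
EEF2 (chr19:3985444-3985483, minus strand): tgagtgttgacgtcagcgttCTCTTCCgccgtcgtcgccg
EEF1B2 (chr2:206159875-206159914, plus strand): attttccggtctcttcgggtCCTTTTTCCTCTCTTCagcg
EIF4A2 (chr3:186783557-186783596, plus strand): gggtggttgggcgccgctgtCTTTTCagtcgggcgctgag
EIF4B (chr12:53006436-53006475, plus strand): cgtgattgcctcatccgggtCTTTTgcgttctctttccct
EIF3F (chr11:7987317-7987356, plus strand): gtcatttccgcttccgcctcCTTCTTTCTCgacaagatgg
EIF3M (chr11:32583811-32583850, plus strand): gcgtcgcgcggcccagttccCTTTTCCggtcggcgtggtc
EIF2S3 (chrX:24054936-24054975, plus strand): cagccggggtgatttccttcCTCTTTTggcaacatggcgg
A C at the start base followed by at least 4 bases that are C or T was found on the transcribed strand in 12 of 46 tested members. By window that was 19.4% of 62, where 4.07% of all 35116 windows held it. Members with the tract had a median log2 fold change of -0.51 (range -0.87 to 0.08) and members without it -0.52 (range -1.63 to 0.80). Of the 12 members with the tract, 7 were called lower, and as TPM 7 were lower and 3 higher. Of the 34 without it, 25 were called lower and 1 higher, and as TPM 17 lower and 7 higher. Over all tested genes, 49.3% were called lower and 6.40% higher, and as TPM 26.6% and 24.4%. Among the 8 shown, EIF3M (-0.87), EIF2S3 (-0.62) and EEF1B2 (-0.62) fell. EIF4A2 (0.01), EIF3F (0.08), EEF2 (-0.12), EEF1A1 (-0.21) and EIF4B (-0.23) did not pass. The members with the tract that are not shown, EIF2A, EIF2D, EIF3D and EIF3K, were each called lower on both scales. A match describes these letters at 1 annotated start and shows neither the start used in these cells nor regulation.

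Other translation genes, a list of 37 by role of which 36 were tested, showed 24 lower, 2 higher and 10 that did not pass (median -0.45), and 13 lower and 6 higher as TPM. That is 66.7% lower and 5.56% higher, where 49.3% and 6.40% of all genes were, and as TPM 36.1% and 16.7%, where 26.6% and 24.4% were. ABCE1, which splits ribosomes after termination, had 48.9, 51.8 and 60.7 in sgMETTL1.3, against 175, 193 and 179 in sgNS (-1.75, limma adjusted p = 1.7e-07; -1.40 as TPM). GSPT1, a release factor, had 56, 58.3 and 67.1 in sgMETTL1.3, against 112, 124 and 118 in sgNS (-0.96, limma adjusted p = 7.93e-06; -0.61 as TPM). With ETF1, the other release factor (-0.50), all 3 tested genes of termination and recycling fell, where 49.3% of all genes did. As TPM, ETF1 did not pass and 2 of the 3 were lower, where 26.6% of all genes were. IMPACT, an inhibitor of GCN2 activation, had 5.58, 6.32 and 7.02 in sgMETTL1.3, against 14.7, 15.4 and 15.2 in sgNS (-1.14).

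The genes that rose on this list were PPP1R15A and MKNK2. PPP1R15A (GADD34), which directs a phosphatase to eIF2, had 172, 135 and 154 in sgMETTL1.3, against 74.8, 89.3 and 86.8 in sgNS (0.86, limma adjusted p = 3.76e-05; 1.21 as TPM). MKNK2, a kinase of eIF4E, had 185, 117 and 137 in sgMETTL1.3, against 84.8, 89.8 and 91.5 in sgNS (0.69, limma adjusted p = 0.00286; 1.04 as TPM). MKNK2 was 0.54 higher on the log2 scale in sgMETTL1.3 replicate 1 than in the other 2 libraries of its group and stayed called without it (0.51). MKNK1, the other kinase of eIF4E, fell (-0.51, limma adjusted p = 0.00136; -0.17 as TPM, also called lower). Of the cap-binding inhibitors, EIF4EBP2 fell to 70.1 ± 5.10 in sgMETTL1.3, against 131 ± 5.08 in sgNS (SD, n = 3, log2 fold change -0.89). EIF4EBP1 fell (-0.56) without passing as TPM (-0.21), and EIF4EBP3 did not pass on either scale. In sgMETTL1.3 replicate 1, EIF4EBP1 was 0.57 and EIF4EBP3 1.55 higher on the log2 scale than in the other 2 libraries. Without that library, both were called lower on the spike-in scale (-0.75 and -1.07) and as TPM (-0.34 and -0.73). Among the 7 diphthamide genes, whose enzymes modify a residue of eEF2, 6 fell and 4 were called lower as TPM. That is 85.7% and 57.1%, where 49.3% and 26.6% of all genes were called lower. Their log2 fold changes ran from -0.86 for DPH2 to -0.25 for DPH1. Neither DHPS (0.04) nor DOHH (0.02), the enzymes that make hypusine on eIF5A, passed on the spike-in scale. DHPS was called higher as TPM (0.39, limma adjusted p = 0.00285). DOHH was 1.26 higher on the log2 scale in sgMETTL1.3 replicate 1 than in the other 2 libraries of its group. Without that library, DOHH was called lower on the spike-in scale (-0.40, limma adjusted p = 0.00234) and did not pass as TPM (-0.03).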

How the data were processed

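The deposited signal values are TPM that the authors rescaled, library by library, to 1 common sum of the 92 spike-in rows, as the values show. Per the submitters' processing notes, cutadapt, STAR and RSEM were used with GRCh38 and hg38; the sources used here give no versions, annotation or strandedness. Libraries came from 300 ng of total RNA, per the labels' protocols. Depth is unknown, so no counting interval is given.

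The test was limma 3.58.1 under R 4.3.3, on log2(value + 1), for genes that reached 1 in 3 or more of 6 libraries (trend, robust, no block, all 6 libraries), with Benjamini-Hochberg adjustment over 12449 genes at 0.05. Spike-ins were not tested. The added 1 makes fold changes of low genes too small. TPM were recovered by giving each library the same total. The fit was tested on simulated data. Replicate numbers did not pair the libraries (correlations of deviations of same-numbered libraries -0.014, 0.005 and -0.039). Coordinates, overlaps and GC came from GENCODE release 29 (GRCh38), and promoter windows from RefSeq (GRCh38.p14), with a window for 46 of 57 tested members.

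Values of every library were given for the lowest and highest log2 fold change and the highest level of each group, the 10 smallest p and, of other translation genes, the 3 lowest and up to 3 highest calls. Members and lists were chosen with earlier results of these data known, and motifs and ratios after the values were seen. One further marker list is not reported here. Alternatives changed the scaling, pseudocount, filter or variance trend, added a replicate block, or dropped 1 library at a time.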

Additional observations from a re-analysis of the deposited data

How the results depend on the processing

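Of 27 members with values in every library, 19 kept direction and side of the threshold under all 15 alternatives. METTL1 stayed lower and past the threshold in each, between -1.50 and -1.08. Counts of members lower stayed within 1.5 times of 41, at 30 as TPM and with median-ratio rescaling. Members higher numbered 10 as TPM and with median-ratio rescaling, 20 as TPM without sgMETTL1.3 replicate 1, and 1 to 2 with 1 library left out on the spike-in scale, namely 2 without sgMETTL1.3 replicate 1 and 2 without sgMETTL1.3 replicate 2. EIF2AK genes lower numbered 1 as TPM, with median-ratio rescaling and as TPM without sgMETTL1.3 replicate 1. With 1 library left out they numbered 2 to 4, with 4 without sgMETTL1.3 replicate 3, where 5901 of 12313 tested genes were lower. EIF3 genes lower were 7 with median-ratio rescaling and EIF4 genes 4 as TPM. EEF genes lower numbered 5 to 8 with 1 library left out, 8 without sgMETTL1.3 replicate 1. Among the 27, calls opposite in sign were EEF2 as TPM (0.23) and as TPM without replicate 1 (0.14), EEF1A1 with median-ratio rescaling (0.15) and as TPM without replicate 1 (0.19), and EIF2AK4 as TPM without replicate 1 (0.18). None of these 3 had passed on the spike-in scale. Members outside the 27 are not covered by this list. Of them, EIF1AD, EIF3H, EIF3L, EIF4E2 and EIF5 were called lower on the spike-in scale and higher as TPM without replicate 1. The median of all genes was 0.002 as TPM; the cause of these changes was not tested. A replicate block gave 39 members lower and 1 higher. Fits with 1 library left out pool the spread over genes. Depth is unknown, so low members cannot be given a counting error.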

Other observations

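The partners of EIF4A3 in the exon junction complex, chosen after its rise was seen, did not rise on the spike-in scale. MAGOH averaged 95.9 in sgMETTL1.3 and 140 in sgNS (log2 fold change -0.55, limma adjusted p = 0.000544), and did not pass as TPM (-0.20). RBM8A averaged 66.2 in sgMETTL1.3 and 97.7 in sgNS (-0.56, limma adjusted p = 0.00042; -0.21 as TPM, also called lower). MAGOHB, a paralog of MAGOH, averaged 8.56 in sgMETTL1.3 and 16.1 in sgNS (-0.85, limma adjusted p = 0.000215; -0.53 as TPM, also called lower). CASC3 averaged 62.3 in sgMETTL1.3 and 63.1 in sgNS, did not pass (-0.02) and was called higher as TPM (0.32). Of the nonsense-mediated decay genes UPF1, UPF2, UPF3B and SMG1, none passed on the spike-in scale, with log2 fold changes from -0.17 for UPF3B to 0.15 for UPF1, and UPF1 was called higher as TPM (0.49). Transcripts of the core partners MAGOH and RBM8A thus differed in direction from that of EIF4A3 on the spike-in scale.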
